A study of Mus musculus with 4 samples.

Results

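The genes described here are targets and cofactors of MLL fusion proteins in mouse leukaemic cells, chosen by symbol from a list of 10: Meis1, Pbx3, Mef2c, Myb, Myc, Cdk6, Jmjd1c, Zfp521, Runx2 and Dot1l. Of these, 8 symbols were measured, as 12 RefSeq transcripts, among 16545 symbols and 18061 transcripts in all. Myc and Zfp521 were not analysed here. The list was made from gene names, and no value of this comparison entered its rule. It and the other gene lists below were nevertheless chosen with earlier results of these data known. The cells were C57BL/6 mouse leukaemic cells carrying the MLL-AF9 fusion, taken from bone marrow and grown in liquid culture. All had the genotype Ring1a-/-;Ring1bf/f Cdkn2a-/-, so that both groups carried the Ring1a and Cdkn2a deletions, as labelled. One group received OHT for 72 h, usually short for hydroxytamoxifen, a ligand that switches on recombinases made to delete floxed alleles. The other received EtOH (ethanol) over the same 72 h. There were 2 RNA-seq samples of each. RING1A and RING1B are the catalytic subunits of Polycomb repressive complex 1 (PRC1), which puts ubiquitin on histone H2A, and the title of the study asks whether PRC1 activity maintains leukaemic identity. The labels used here name neither the recombinase nor its promoter. They leave unsaid whether replicates were separate mice or cultures, so every p-value reflects only how these samples spread, possibly for technical reasons. Cells without the floxed allele given OHT were not analysed here, so effects of OHT itself and of losing RING1B cannot be told apart.

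MLL is a histone methyltransferase that keeps developmental genes active, and leukaemic fusions join its DNA-binding end to a partner such as AF9, a protein of the transcription elongation machinery. The fusion holds a set of genes on, among them HoxA genes and their cofactor Meis1, and it recruits the histone H3 lysine 79 methyltransferase DOT1L to them. Part of the set (Meis1, Pbx3, Mef2c, Myb, Runx2) encodes transcription factors. Another part encodes regulators that the leukaemia relies on (the kinase CDK6, the demethylase-family protein JMJD1C and DOT1L itself).

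The authors' deposited table holds 1 mean per group, and the reads of the single libraries were solved from those means. Each treatment has a library A and a library B, A being the one with the larger size factor. The letters follow no label and pair no libraries across the treatments. Libraries A and B held 5687967 and 4509718 reads with OHT, against 6255320 and 3841243 reads with EtOH. Values per library below are scaled reads, that is, reads divided by the library's size factor. Rnf2, which encodes RING1B, had 716 and 797 scaled reads in the OHT libraries and 687 and 583 in the EtOH libraries (limma-voom adjusted p = 0.454). Which exons the floxed allele loses is not stated, so this whole-transcript count does not check the deletion. Ring1, which encodes RING1A, had 149 and 93.8 scaled reads with OHT and 49.8 and 84.6 with EtOH (limma-voom adjusted p = 0.129). Reads of Ring1 were thus present in all 4 libraries, although the label gives Ring1a-/-. Which part of that gene the allele lacks is not stated either. Levels of the leukaemic blast markers were mixed. The myeloid genes Spi1, Cebpa and Fcgr3 ran from 1008 to 1510 scaled reads over the libraries, and Csf1r from 124 to 1471. Mpo ran from 18.2 to 351 scaled reads, Ptprc from 23.4 to 102 and Cd34 from 11.7 to 87.1. Itgam ran only from 14.3 to 32.8 and Csf3r from 1.66 to 7.56. Kit, a stem and progenitor receptor, had at most 5.58 scaled reads. In bulk RNA, fewer cells of a type and less RNA per cell cannot be told apart.

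None of the measured MLL-fusion targets and cofactors passed the test between OHT and EtOH. Of the 12 transcripts, 0 had an adjusted p under 0.05 by the authors' deposited table, against 5.48% of all transcripts, and 1 had an unadjusted p under 0.05. With the transcripts of a symbol summed, limma-voom on the solved reads called 0 of the 8 genes, against 15.7% of 11072 fitted genes, and 1 had an unadjusted p under 0.05. Dot1l was that gene in both. Fitted per transcript, limma-voom called 0 of the 11 that could be fitted, against 15.2% of all. The limma-voom log2 fold changes ran from -0.57 (Dot1l) to 0.33 (Meis1), with 6 below 0 and 2 above. Their median was -0.28, beside -0.07 over all fitted genes, of which 54.4% lay below 0. OHT and EtOH libraries did not overlap for 5 of the 8 genes, against 62.0% of all fitted genes. OHT lay below EtOH in 4 of them (34.2% of all) and above it in 1 (27.8% of all), shares that are no result about these genes. A missing call does not show an unchanged gene: the intervals below give the changes that these libraries leave possible.

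**Figure D1:**
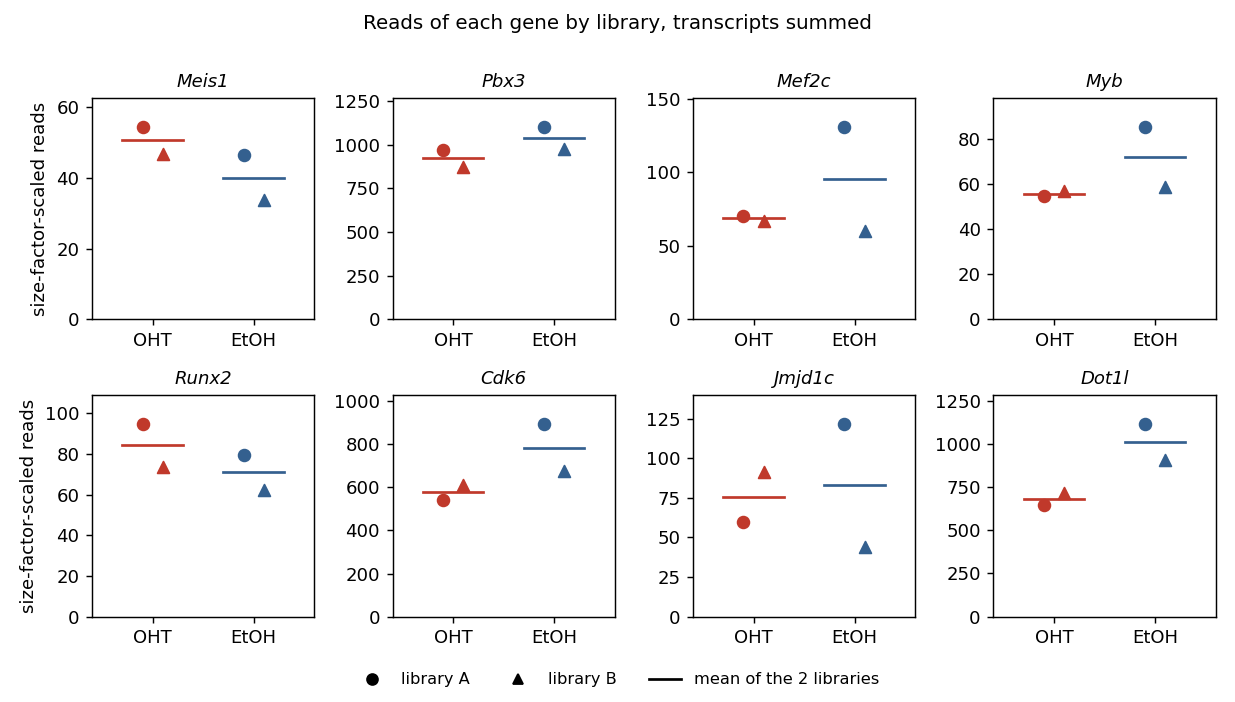
Scaled reads (linear axis from 0) of the 8 genes, with OHT at the left and EtOH at the right of each panel. Circles are library A, triangles library B and lines the mean of the 2 libraries. The groups are apart for Dot1l, Cdk6, Pbx3, Myb and Meis1, and the EtOH libraries of Jmjd1c (122 and 44.3) lie on both sides of the OHT libraries.

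For 3 of the genes the bases just before the transcription start are shown, Meis1 as the HOX cofactor of the set and Dot1l and Cdk6 as the members with the smallest p. They are RefSeq promoter windows of GRCm38.p6, matched by symbol, whereas the study used mm9, and each ends at the base before the start. Capitals mark CpG dinucleotides, the sites that the CXXC domain of MLL binds when they are unmethylated. The windows are chr11:19018970-19019219 on the minus strand for Meis1, chr5:3343643-3343892 on the plus strand for Cdk6 and chr10:80754953-80755202 on the plus strand for Dot1l.
Meis1: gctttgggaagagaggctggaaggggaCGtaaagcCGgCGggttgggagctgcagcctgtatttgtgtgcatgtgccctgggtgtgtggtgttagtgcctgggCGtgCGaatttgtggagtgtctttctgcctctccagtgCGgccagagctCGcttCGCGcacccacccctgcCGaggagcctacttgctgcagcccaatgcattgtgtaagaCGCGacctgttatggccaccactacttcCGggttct
Cdk6: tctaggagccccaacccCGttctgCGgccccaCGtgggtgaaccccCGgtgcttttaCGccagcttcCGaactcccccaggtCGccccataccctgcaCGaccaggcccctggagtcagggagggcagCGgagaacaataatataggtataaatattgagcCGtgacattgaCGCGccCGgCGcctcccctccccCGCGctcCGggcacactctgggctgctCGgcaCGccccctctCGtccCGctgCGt
Dot1l: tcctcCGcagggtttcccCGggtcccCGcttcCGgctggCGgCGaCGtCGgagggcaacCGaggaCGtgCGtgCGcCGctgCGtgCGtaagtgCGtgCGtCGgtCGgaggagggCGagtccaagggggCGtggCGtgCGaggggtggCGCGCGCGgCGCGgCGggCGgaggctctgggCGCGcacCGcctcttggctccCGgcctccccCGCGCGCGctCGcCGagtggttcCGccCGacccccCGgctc
The Dot1l window held 44 CpGs, a number that 0.539% of all 32851 windows of this length reached, and the Cdk6 window held 22 (14.8%). The Meis1 window held 13 CpGs (31.5%), against a median of 6 over all windows. Windows were found for 7 of the 8 genes, 10 windows in all, and not for Pbx3. The only Runx2 window held 0 CpGs, the Myb window 40 and the Jmjd1c windows 40 and 11. The Mef2c windows held 1, 6 and 4 CpGs. In all, 6 of the 10 windows lay above the median. Both strands of the 250 bases were searched for short motifs. The MYC-MAX E-box CACGTG lay in 1 of the 10 windows, that of Cdk6, and in 6.02% of all windows. The RUNX core TGTGGT lay in the Meis1 and Runx2 windows and in 14.0% of all windows, the MEIS motif TGACAG in 0 of the 10 and in 15.9% of all. The MYB core AACNG lay in 6 of the 10 windows and in 74.2% of all. A match is a string of letters and not a bound site, and no protein binding was measured here.

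Among the transcription factors, Meis1, a homeobox factor of the TALE class that binds DNA with HOX proteins, was higher with OHT in both libraries. It had 54.6 and 46.9 scaled reads with OHT, against 46.4 and 33.9 with EtOH, from 107 and 82 reads in all. The lower OHT library stood only just above the higher EtOH library. The limma-voom log2 fold change was 0.33 ± 0.39 (SE), with a 95% interval of -0.54 to 1.19 and an adjusted p of 0.613. Its transcript NM_001193271 was listed in the authors' deposited table at 51.7 with OHT and 41.2 with EtOH (adjusted p = 1).

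Pbx3, the TALE partner of MEIS1 and HOX proteins, was the most abundant of the genes per length (given further on). It had 968 and 875 scaled reads with OHT, against 1105 and 974 with EtOH. The lower EtOH library stood only slightly above the higher OHT library. Its log2 fold change in limma-voom was -0.17 ± 0.20 (SE), with an interval of -0.62 to 0.28 (adjusted p = 0.604). A fall to 0.650 of the EtOH level and a rise to 1.21 times it both lay inside that interval.

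Myb, which encodes a transcription factor of blood progenitors, had 54.6 and 56.9 scaled reads with OHT and 85.4 and 58.6 with EtOH. The OHT libraries agreed closely and the lower EtOH library stood just above them, so EtOH library A carried the difference. With all libraries the limma-voom log2 fold change was -0.38 ± 0.36 (SE, adjusted p = 0.519), and without EtOH library A it was -0.08 (adjusted p = 0.907).

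Mef2c, a MADS-box factor of progenitor and myeloid cells, had 70.5 and 67.0 scaled reads with OHT and 131 and 59.9 with EtOH. The EtOH libraries differed 2.19-fold and lay on both sides of the OHT libraries. The limma-voom log2 fold change was -0.43 ± 0.41 (SE, adjusted p = 0.516). It was 0.20 without EtOH library A (adjusted p = 0.751) and -0.92 without EtOH library B (adjusted p = 0.0962), so its sign rested on 1 library. Of its transcripts, NM_001170537 had 131 reads with OHT and 178 with EtOH, and NM_025282 had 13 and 26.

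Runx2, a factor of the RUNX family best known for bone formation, had 94.9 and 73.7 scaled reads with OHT and 79.6 and 62.5 with EtOH. The groups overlapped. Limma-voom gave a log2 difference of 0.24 ± 0.34 (SE), with an interval of -0.53 to 0.999 (adjusted p = 0.682). Of its 3 transcripts, NR_073392 had 1 read with OHT and 0 with EtOH, too few for a fold.

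Of the regulators, Dot1l differed most between the treatments. It had 643 and 713 scaled reads with OHT, against 1115 and 904 with EtOH, from 1405 and 2039 reads in all. Both OHT libraries lay well below both EtOH libraries. The mean was 678 ± 49.5 with OHT and 1010 ± 150 with EtOH (SD, n = 2 each). Limma-voom gave a log2 fold change of -0.57 ± 0.21 (SE) with an interval of -1.04 to -0.10, an unadjusted p of 0.0218 and an adjusted p of 0.0931. For its transcript NM_199322 the authors' deposited table gives a p of 0.0300 and an adjusted p of 0.250. Of all fitted genes, 17.4% had a lower log2 fold change. Dot1l was called lower in the limma-voom fit per transcript without EtOH library B (-0.72, adjusted p = 0.0462), where 14.0% of transcripts were called. With reads summed by symbol and the same library left out, the adjusted p was 0.0513.

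Cdk6, the cyclin D-dependent kinase that drives entry into S phase, showed the same order of libraries as Dot1l. It had 543 and 611 scaled reads with OHT, against 896 and 674 with EtOH. The higher OHT library lay below the lower EtOH library. Means were 577 ± 48.2 with OHT and 785 ± 156 with EtOH (SD, n = 2 each). The limma-voom log2 fold change was -0.44 ± 0.22 (SE), with an interval of -0.94 to 0.05 and an adjusted p of 0.204. It was -0.23 without EtOH library A (adjusted p = 0.457) and -0.64 without EtOH library B (adjusted p = 0.0749).

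Jmjd1c, of the KDM3 family of histone demethylases, varied more within the treatments than between them. It had 59.6 and 91.5 scaled reads with OHT and 122 and 44.3 with EtOH. The EtOH libraries differed 2.75-fold, and 5.92% of all fitted genes had an EtOH gap as large. Limma-voom gave -0.11 ± 0.48 (SE, adjusted p = 0.902) on the log2 scale, 0.70 without EtOH library A (adjusted p = 0.301) and -0.75 without EtOH library B (adjusted p = 0.206). No direction can be given for Jmjd1c.

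All 8 genes had more scaled reads in EtOH library A than in EtOH library B, as did 58.0% of all fitted genes. In OHT, 4 of the 8 were higher in library A, as were 45.5% of all fitted genes. What set the EtOH libraries apart was not tested.

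**Figure D2:**
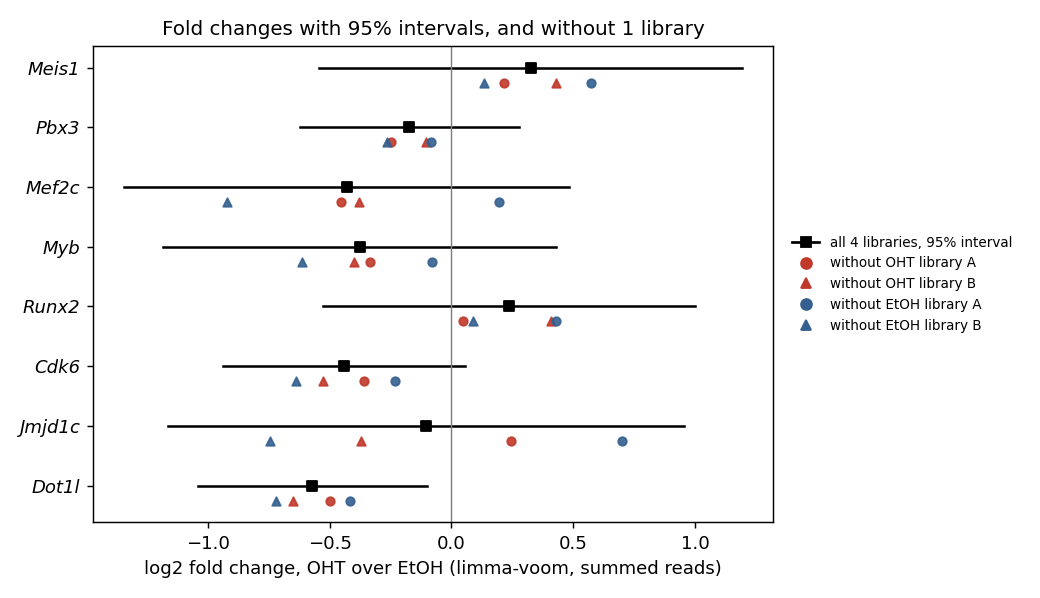
Log2 fold changes of OHT over EtOH from limma-voom on summed reads. Squares are fits of all 4 libraries with 95% intervals, and the circles and triangles beneath each are fits without 1 library. The interval of Dot1l (-1.04 to -0.10) lies below 0 before adjustment, and the points of Jmjd1c spread from -0.75 to 0.70.

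Mef2c, Jmjd1c and Runx2 each had several transcripts, and their shares of the gene's reads were compared between libraries. NM_001170537 held 88.1% and 95% of Mef2c reads in the OHT libraries A and B, against 86.7% and 89.1% in the EtOH libraries. NM_001242396 held 62.0% and 68.3% of Jmjd1c reads with OHT, against 70.1% and 70.6% with EtOH. The Wilson 95% intervals of these shares overlapped between all libraries. For Runx2 the intervals of the EtOH libraries were apart, and those of the OHT libraries overlapped slightly. NM_001145920 held 84.1% (95% interval 76.2 to 89.7) and 68.2% (56.2 to 78.2) of Runx2 reads in OHT libraries A and B. In EtOH libraries A and B it held 89.6% (81.9 to 94.2) and 64.6% (50.4 to 76.6). Library A, the one with the larger size factor, was thus above library B in both treatments. The pooled shares were 78.2% with OHT and 81.2% with EtOH. These intervals cover counting error only.

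**Figure D3:**
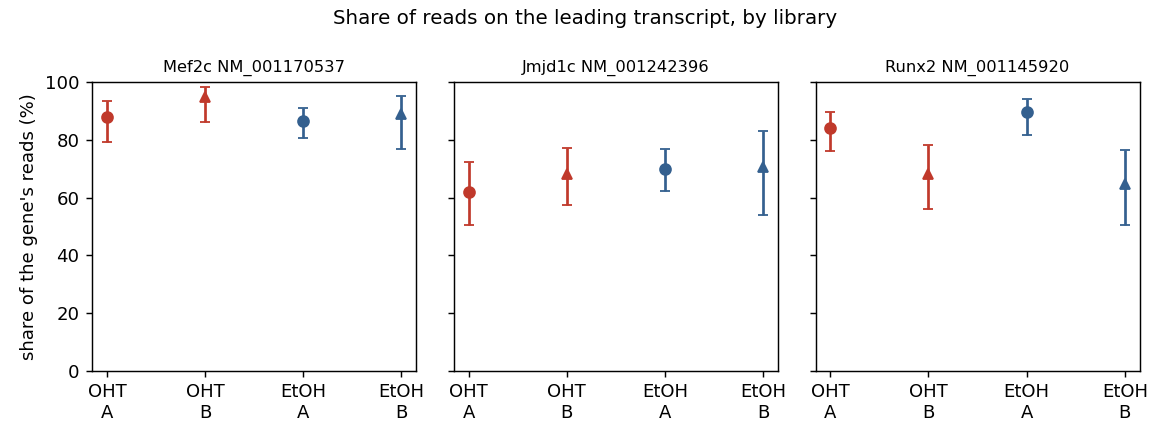
Share of a gene's reads (%, axis from 0 to 100) on its leading transcript, with OHT libraries at the left and EtOH libraries at the right of each panel. Points are single libraries and bars Wilson 95% intervals. The Runx2 share is near 64.6 to 68.2% in both B libraries and 84.1 to 89.6% in both A libraries.

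Levels were also compared per length, as scaled reads per kb of the GENCODE M21 transcript paired with each accession. Pbx3 stood highest, with 374 and 338 per kb in OHT libraries and 427 and 376 in EtOH libraries. Dot1l followed with 94.5 and 105 per kb with OHT and 164 and 133 with EtOH, and then Cdk6 with 47.1 and 53.0 with OHT and 77.7 and 58.5 with EtOH. Each of these steps exceeded the spread between libraries. Mef2c NM_001170537 came next with OHT, at 21.7 and 22.2 per kb. With EtOH it had 39.7 and 18.7 per kb, which overlapped the values of Myb. Myb and Meis1 could not be ordered with OHT, where Myb had 14.8 and 15.4 per kb, inside the 17.1 and 14.7 of Meis1. With EtOH, Myb had 23.1 and 15.9 per kb, both above the 14.5 and 10.6 of Meis1. The transcripts of Runx2 and Jmjd1c lay lower, at a mean of at most 10.1 per kb with OHT and 8.64 with EtOH. The low values need care. Dot1l and Cdk6 have 1 curated RefSeq accession in GRCm38.p6, Meis1, Myb, Pbx3 and Jmjd1c have 2, Runx2 has 8 and Mef2c 18. Over 15459 matched symbols, the median summed EtOH mean of the authors' deposited table was 69.3 for the 9157 symbols with 1 such accession and 33.9 for the 6302 with several. Of the genes with 2, Pbx3 stood highest of all and Jmjd1c among the lowest. Whether the number of accessions bears on these levels was not tested. How reads shared by transcripts were counted is not given in the sources used here.

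With all libraries and the filter on low counts, the paralogues of these genes passed no test either. Of 5 measured TALE genes besides Meis1 and Pbx3, the authors' deposited table called 0, against 5.48% of all transcripts. Limma-voom fitted 2 of them and called 0, against 15.7% of all fitted genes. Pbx2 had 970 and 845 scaled reads with OHT and 738 and 743 with EtOH, and Pbx4 21.8 and 36.8 against 35.7 and 44.3. Among 3 other MEF2 genes, 2 of them fitted by limma-voom, none was called by either test with all libraries. Mef2a had a limma-voom log2 fold change of 0.69 (adjusted p = 0.200), which was 1.39 without EtOH library A (adjusted p = 0.00821), and Mef2d one of 0.32. The relatives of Myb lay below 0: Mybl2, a cell-cycle MYB factor, had 729 and 668 scaled reads with OHT and 943 and 1654 with EtOH (limma-voom -0.83, adjusted p = 0.0619). It was called without EtOH library A (-1.25, adjusted p = 0.00343) and with no filter on low counts (adjusted p = 0.0266). Mybl1 had a limma-voom log2 fold change of -0.55. Runx3 had 1099 and 1067 scaled reads with OHT and 1130 and 990 with EtOH, and its groups overlapped (limma-voom adjusted p = 0.931). Cbfb, the shared partner of RUNX factors, had a limma-voom log2 fold change of -0.44 (adjusted p = 0.536). Of the KDM3 genes, Kdm3b had 1194 mean scaled reads with OHT and 1368 with EtOH, and Kdm3a 5.03 and 1.07. Zfp423, the paralogue of Zfp521, had 7.56 and 7.81 scaled reads with OHT, against 0 and 2.60 with EtOH, and was too low to be fitted with the filter on low counts. With no filter, limma-voom called it higher (2.91, adjusted p = 0.0323), whereas the authors' deposited table gives it an adjusted p of 0.674.

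A pair of genes of the Cdk6 module did pass limma-voom, in opposite directions. Ccnd1, the cyclin D1 gene, had 409 and 732 scaled reads with OHT and 123 and 130 with EtOH, a limma-voom log2 fold change of 2.10 ± 0.34 (SE, adjusted p = 0.00437). The authors' deposited table does not call it (adjusted p = 0.0585). Rbl1, which encodes the pocket protein p107, fell 2.01-fold in the authors' deposited table (adjusted p = 0.0150). Limma-voom called it too (-1.09, adjusted p = 0.0129), but not without OHT library A (adjusted p = 0.195). The other 6 measured genes of this G1 module were not called with all libraries. Of 11 measured genes of the MYC and MAX network, Mxd1, a repressing partner of MAX, was called higher by limma-voom alone (0.83 ± 0.20 SE, adjusted p = 0.0214). Leaving out either OHT library ended that call, with adjusted p-values of 0.227 without A and 0.0591 without B.

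Of 19 measured genes that MYC is known to drive, 5 fell and 0 rose in the authors' deposited table, where 1.85% of all transcripts were lower and 3.62% higher. Limma-voom called 7 of the 18 fitted lower and 0 higher, against 5.68% and 10% of all fitted genes. Their median log2 fold change was -0.64, beside -0.07 over all fitted genes. Polr1b, an RNA polymerase I subunit, fell 2.14-fold, Ppat, of purine synthesis, 2.09-fold, and the ribosome assembly factors Wdr43 2.04-fold and Nop58 1.89-fold in the authors' deposited table. The limma-voom count of 7 fell to 0 without OHT library A and to 4 without EtOH library B, and it was 11 when EtOH library A was left out.

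Among complexes that work with the fusion and Dot1l, limma-voom with all libraries and the filter gave 1 call. Of 13 measured genes of DOT1L and elongation complexes besides Dot1l, limma-voom fitted 11, and 0 were called by either test. Aff3, of the AFF scaffold family, lay next to the threshold: it had 48.7 and 69.2 scaled reads with OHT, against 19.9 and 22.1 with EtOH (limma-voom 1.44, adjusted p = 0.0502). It was called higher under 5 alternatives with adjusted p-values of 0.0378 to 0.0496: trimmed-mean factors, upper-quartile factors, limma-trend, no filter on low counts, and the added read kept. The elongation kinase gene Cdk9 had mean scaled reads of 1288 with OHT and 1359 with EtOH, and Aff4, the scaffold of the super elongation complex, 1119 and 1027. All 7 fitted genes of the MLL and menin complex lay below 0, with a median of -0.50. Limma-voom called 1 of them lower, against 5.68% of all fitted genes: Rbbp5, a core subunit (-0.78 ± 0.20 SE, adjusted p = 0.0289). Without OHT library A or B it called none of them, and Hcfc1 was called lower besides with no filter on low counts (adjusted p = 0.0299) and without EtOH library B (adjusted p = 0.0395). All 8 fitted genes of the PAF1 complex and BET proteins were also below 0, with a median of -0.46 and no call with all libraries; Ctr9 had mean scaled reads of 726 with OHT and 937 with EtOH, and Paf1 757 and 847. Without EtOH library B, Cdc73 of this complex was called lower (-0.78, adjusted p = 0.0395). Of 18 other MLL-fusion targets 1 fell in the authors' deposited table, where 1.85% of all transcripts were lower: Gfi1, a repressor of granulocyte precursors, 4.44-fold (adjusted p = 0.00786). Limma-voom also called Id2, an inhibitor of bHLH factors, higher (1.06 ± 0.28 SE, adjusted p = 0.0296), a call lost without OHT library B or EtOH library B. Of 10 MYB target genes, 9 of them fitted by limma-voom, Gfi1 was the only call with all libraries. Over all fitted genes, limma-voom called 5.68% lower.

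**Figure D4:**
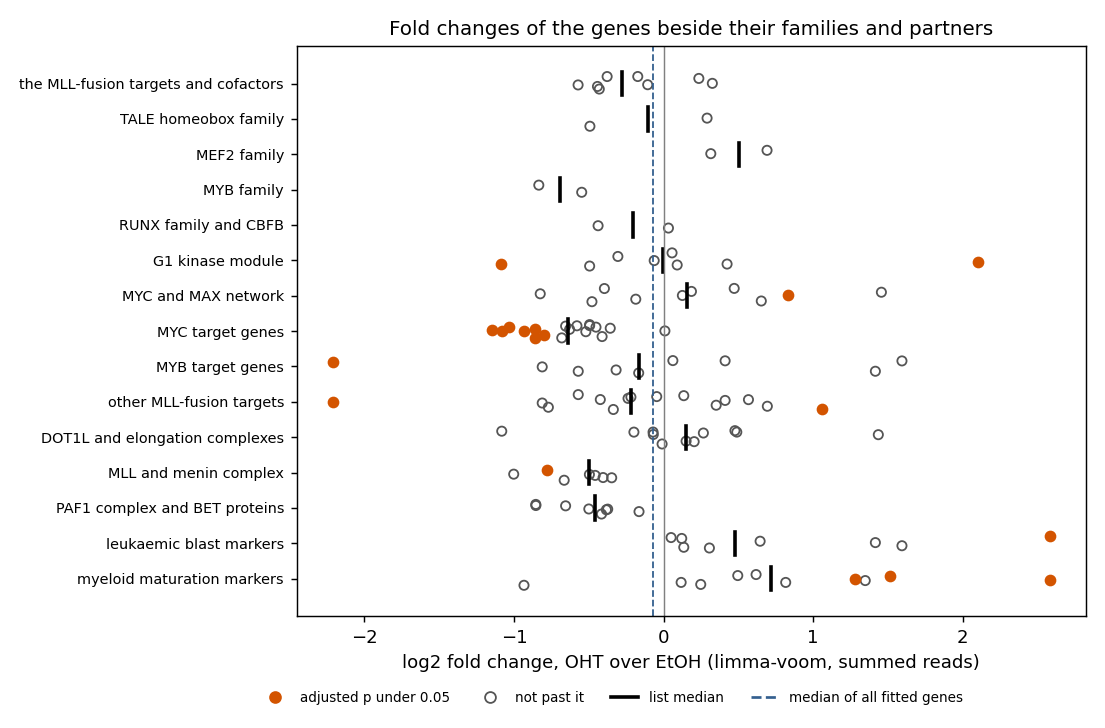
Log2 fold changes of OHT over EtOH (limma-voom, summed reads) for the 8 genes and for their families, partners and marker lists, without the 8 genes. Filled points passed an adjusted p of 0.05, black bars are list medians and the dashed line is the median of all fitted genes (-0.07). The 8 genes, with no filled point, lie between -0.57 and 0.33.

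Of the myeloid maturation markers, limma-voom called 3 of 10 fitted genes higher, against 10% of all fitted genes: Csf1r, the macrophage colony-stimulating factor receptor, Lyz2 (lysozyme) and Cd68, with log2 fold changes of 2.58, 1.28 and 1.51. Of the 11 measured, the authors' deposited table called 1 higher, Lyz2 (adjusted p = 0.000505), and gives adjusted p-values of 0.0666 for Csf1r and 0.153 for Cd68. OHT and EtOH libraries overlapped for the granule and calprotectin genes Ltf, S100a8, S100a9, Camp and Ngp. Ltf, for example, had 439 and 191 scaled reads with OHT and 376 and 898 with EtOH. The summed level of the 11 measured markers was 8979 and 9160 scaled reads with OHT, against 5123 and 4906 with EtOH. Emr1 had the highest level of them with OHT, at 2375 and 3315 scaled reads, against 1882 and 634 with EtOH. Ngp had 661 and 1301 with EtOH and, like Ltf, was higher in EtOH library B. The close EtOH sums thus hide opposite gaps between the libraries. Leukaemic blast markers summed to 5793 and 5179 scaled reads with OHT, against 3926 and 3898 with EtOH. Csf1r was their only call, 1 of 8 fitted in limma-voom, against 10% of all fitted genes called higher. It counts in both sums, with 1471 and 746 scaled reads with OHT and 229 and 124 with EtOH. The part of maturation in the values of the MLL-fusion targets was not tested. Markers of other cell types were low: the 4 T cell markers summed to 11.8 and 5.58 scaled reads with OHT and 4.98 and 3.91 with EtOH (Cd5 and Cd3d highest), with Cd3g at 0 in both OHT libraries. The 5 B cell markers summed to 191 and 102 with OHT and 60.5 and 115 with EtOH, nearly all from Cd79b, with Cd79a at most 8.40. The 3 erythroid markers summed to 58.8 and 91.5 with OHT and 17.4 and 16.9 with EtOH, and of them Epor, the erythropoietin receptor, rose 9.32-fold in the authors' deposited table. The 8 stromal and endothelial markers summed to 68.9 and 67.0 with OHT and 50.6 and 54.7 with EtOH, and Col1a1 rose 5.69-fold in the authors' deposited table. The other 2 fitted markers of that list, Pecam1 and Lepr, lay below 0 in limma-voom without a call, and the median of the 3 was -0.52.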

How the data were processed

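RNA-seq was done on 2 OHT and 2 EtOH samples, with a TruSeq RNA library kit, which does not mark strand, per the labels' protocols. TopHat, DESeq and build mm9 are named per the submitters' processing notes; the counting program is not given in the sources used here. The deposited table is the authors' own comparison. Its signal columns are, per the file headers, group base means. The deposited ratio and log2 columns are OHT over EtOH, and the deposited p-value columns a p and its adjusted p.

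Each group mean of the 18061 transcripts solved (100%, each uniquely) to whole reads of both libraries plus 1 read in each, which was subtracted. Size factors were 1.19 and 0.896 for OHT libraries A and B and 1.21 and 0.768 for EtOH libraries A and B. Means rebuilt from the solution differed from the deposited ones by at most 5.12e-10 of the value. Reads were summed by symbol and fitted by group with limma-voom (limma 3.58.1, R 4.3.3), over 11072 symbols with at least 10 reads in 2 libraries, with 2 residual degrees of freedom and Benjamini-Hochberg adjustment over all of them. Gene variances were moderated by empirical Bayes over all fitted genes. Intervals and p-values from limma-voom thus rest partly on spread pooled over genes, and not on a gene's own residuals alone. Without 1 library, 1 residual degree of freedom is left and the lone sample is assumed to vary like the others. The solver and the fit were tested on simulated data. Calls are adjusted p under 0.05.

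The genes, lists and tests were chosen with earlier results of these data known. All 8 genes are named; of every other list the called genes, at most 4 by adjusted p, or, with no call, the 2 of highest mean. Genes without a call outside that rule were not named, apart from some chosen after their values were seen. These were Ring1, Aff3, Hcfc1, Cdc73, Pecam1, Lepr, the granule markers, Emr1, Cd3g and the leukaemic blast markers other than Csf1r. Alternatives were other scalings (trimmed mean of M-values and upper quartile), filters, limma-trend, 1 transcript per gene and leaving out 1 library. Reads of overlapping and antisense genes cannot be told apart. The promoter windows come from RefSeq, GRCm38.p6.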

Additional observations from a re-analysis of the deposited data

How the results depend on the processing

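The count of called genes among the 8 stayed at 0 under every scaling, filter, model and left-out library, and with the added read kept, which was an alternative chosen after seeing the data. The limma-voom fit per transcript without 1 library, also chosen after seeing the data, called between 0 and 1 of the transcripts, the 1 being Dot1l without EtOH library B. For the 5 genes with 1 transcript, the alternative of 1 transcript per gene used the same reads, so a kept sign there carries no information. Of 88 member values under the alternatives, those included, 84 kept their sign. The others, none of them called, were Mef2c without EtOH library A and Jmjd1c with limma-trend (0.0061), without OHT library A (0.24) and without EtOH library A. Without 1 library the log2 fold change ran from -0.92 to 0.20 for Mef2c and from -0.75 to 0.70 for Jmjd1c. Log2 fold changes over the alternatives ran from -0.72 to -0.42 for Dot1l and from -0.64 to -0.23 for Cdk6. The same ranges were -0.61 to -0.08 for Myb, -0.26 to -0.08 for Pbx3, 0.13 to 0.58 for Meis1 and 0.05 to 0.43 for Runx2. Among the relatives, signs changed without 1 library for Kdm3b (-0.42 to 0.047), Runx3 (-0.062 to 0.13), Cdk9 (-0.21 to 0.069) and Aff4 (-0.16 to 0.48), and with upper-quartile factors for Cdk9 (0.013); the cause was not tested. Of all fitted genes, 1739 were called, and 679 to 2729 without 1 library, with 679 without OHT library A, 1111 without OHT library B and 2729 without EtOH library A. No paired analysis was possible because the solved libraries carry no replicate numbers. Meis1, Myb, Mef2c, Jmjd1c and Runx2 had at most 204 reads per group each, and the part of depth in their errors was not tested.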
